A study of Mus musculus with 4 samples.

Results

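Macrophages and dendritic cells are the phagocytes and antigen-presenting cells of the thymus. The genes described here are 31 transcripts by which such cells are usually recognised, found by matching the gene symbol in a table of 54532 genes. All 31 were present in the table, and each had reads in all 4 libraries. They were grouped by textbook use into 11 genes shared by most myeloid cells, 11 of macrophages and monocytes and 9 of dendritic cells. The libraries were made from bulk RNA of thymic epithelial cells of C57BL/6 mice sorted by epithelial surface markers, and the cell from which a read came is not known.

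The 4 libraries, 1 per group, are medullary epithelial cells (mTEC, sorted as Ly51− UEA1+) and cortical epithelial cells (cTEC, sorted as Ly51+ UEA1−), each from SCD1 knockout mice and from littermate control mice labelled WT. SCD1 is a desaturase that turns saturated fatty acids into monounsaturated ones. The age and sex of the mice, the number pooled in a library, the knockout allele and whether any marker of blood cells was used to clean the sort were not given in the sources used here. With 1 library per group no difference has a replicate check and no p-value was computed. The 95% intervals cover counting error only, and each comparison is between these libraries rather than between conditions.

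Macrophages of the thymus clear the many thymocytes that die during selection. They recognise dying cells through receptors such as MERTK and through the complement protein C1q, and depend on the growth factor receptor CSF1R. Conventional dendritic cells of the medulla take up antigens made by mTEC and present them to developing T cells. Their development uses the receptor FLT3 and the transcription factors IRF8, BATF3 and ZBTB46, and another kind, the plasmacytoid dendritic cell, carries Siglec-H. PU.1, encoded by Spi1, is the transcription factor shared by all of these lineages.

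The stretches upstream of the start site are shown for 4 members that were higher in mTEC (Laptm5, Mrc1, Cybb and C1qc) and for the 2 whose counting interval lay below 0 there in both genotypes (Cd68 and Mertk), since the comparison of mTEC with cTEC holds the members that passed the size rule described with it. Each is the 250 bases before the RefSeq start on the gene's own strand in build GRCm38.p6. Laptm5 is at chr4:130913066-130913315 and Mrc1 at chr2:14229164-14229413, both on the plus strand. Cybb is at chrX:9469325-9469574 and C1qc at chr4:136892915-136893164, both on the minus strand. The RefSeq starts of Laptm5, Mrc1, Cybb and C1qc lie inside the span of the gene in the count table, and those of Cd68 and Mertk outside it. Cd68 is at chr11:69666171-69666420 on the minus strand and Mertk at chr2:128698665-128698914 on the plus strand. Capitals mark exact matches, on either strand, to GAGGAAG (a purine-rich box of the kind bound by PU.1), the IRF box (GAAA, any 2 bases, GAAA, of the kind bound by interferon regulatory factors) or TGAGTCA (a box of the kind bound by AP-1 proteins).
Laptm5: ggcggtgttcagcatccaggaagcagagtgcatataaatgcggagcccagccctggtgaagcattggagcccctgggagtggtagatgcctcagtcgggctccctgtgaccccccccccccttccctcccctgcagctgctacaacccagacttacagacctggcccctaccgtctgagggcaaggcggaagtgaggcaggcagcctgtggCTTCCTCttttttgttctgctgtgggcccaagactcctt
Mrc1: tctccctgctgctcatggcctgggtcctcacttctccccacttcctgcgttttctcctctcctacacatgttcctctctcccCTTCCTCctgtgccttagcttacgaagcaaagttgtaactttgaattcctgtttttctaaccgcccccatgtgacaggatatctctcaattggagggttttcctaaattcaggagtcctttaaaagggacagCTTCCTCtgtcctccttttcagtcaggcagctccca
Cybb: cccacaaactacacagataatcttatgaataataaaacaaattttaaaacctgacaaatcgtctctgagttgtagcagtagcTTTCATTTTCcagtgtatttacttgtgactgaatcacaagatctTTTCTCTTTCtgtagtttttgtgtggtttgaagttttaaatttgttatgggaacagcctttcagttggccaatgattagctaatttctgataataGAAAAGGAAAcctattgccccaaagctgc
C1qc: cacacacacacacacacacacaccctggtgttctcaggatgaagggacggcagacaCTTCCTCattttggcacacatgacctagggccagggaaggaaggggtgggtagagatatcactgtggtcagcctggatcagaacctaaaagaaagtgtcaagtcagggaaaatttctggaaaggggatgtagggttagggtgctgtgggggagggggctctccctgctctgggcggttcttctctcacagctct
Cd68: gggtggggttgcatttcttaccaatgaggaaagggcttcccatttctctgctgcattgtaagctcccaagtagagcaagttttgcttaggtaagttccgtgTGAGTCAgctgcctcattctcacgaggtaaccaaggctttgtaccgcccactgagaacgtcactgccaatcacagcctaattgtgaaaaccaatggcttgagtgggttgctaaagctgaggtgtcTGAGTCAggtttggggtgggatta
Mertk: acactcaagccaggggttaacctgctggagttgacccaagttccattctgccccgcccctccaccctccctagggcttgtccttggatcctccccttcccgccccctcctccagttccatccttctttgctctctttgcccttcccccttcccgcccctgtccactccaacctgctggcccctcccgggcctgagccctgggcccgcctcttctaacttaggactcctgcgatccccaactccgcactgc

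In these sequences GAGGAAG lies on the opposite strand 39 bases before the start of Laptm5, 36 and 168 bases before that of Mrc1 and 194 bases before that of C1qc. Cybb, which encodes the electron-transferring subunit of the phagocyte NADPH oxidase, holds the IRF box at 29, 124 and 168 bases before its start. Cd68 holds TGAGTCA at 24 and 149 bases before its start, and Mertk none of the boxes. The sequences shown do not stand for all members higher in mTEC. The windows of Lyz2, C1qb, Fcer1g, Flt3, Ccr2, Ly86 and Cd163, which passed as higher there in both genotypes, held none of the boxes. C1qc passed as higher in control mice only. RefSeq windows of 250 bases before to 50 after the start were matched for 25 of the 31 members, 26 windows in all. GAGGAAG was found in 6 of these 26 windows and in 13.6% of all 32851 windows, the IRF box in 2 and in 3.44%, and TGAGTCA in 3 and in 5.20%. A match is a description of the letters only, and no binding was measured here.

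The labels were checked first on genes outside the list. Scd1 had 1310 control and 278 knockout reads in mTEC, and 325 and 73 in cTEC, so it was lower in both knockout libraries. The libraries held 15740383 to 18151725 reads. The 6 genes of general thymic epithelium (Epcam, Foxn1 and keratins) summed to 9408 to 10560 CPM (counts per library size, scaled by the trimmed mean of M-values, TMM). The 7 cTEC markers, Psmb11 and Prss16 among them, stood at 998 and 1320 CPM in mTEC and 9260 and 11784 in cTEC. The 6 mTEC markers, Aire among them, summed to 2218 and 2203 CPM in mTEC and 692 and 680 in cTEC. Aire itself stood at 1267 and 1263 CPM in mTEC and 37.6 and 33.7 in cTEC. Trp63 alone of the 6 lay the other way, at 274 and 239 CPM in mTEC and 546 and 553 in cTEC. It made up most of the cTEC sums.

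Against this epithelial background the 31 members together gave 1145 CPM in the control and 1231 in the knockout library of mTEC, and 509 and 558 in those of cTEC. Reads were unevenly spread among them. Irf8, Laptm5, Lyz2 and Csf2rb held 78.2% to 79.3% of all member reads in each library. Of the rest, 25 had at least 50 reads over the 4 libraries, and Fcgr1 and Clec9a had 45 and 26. The plot of member levels shows that most members lie between 1 and 30 CPM in the mTEC libraries.

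**Figure D1:**
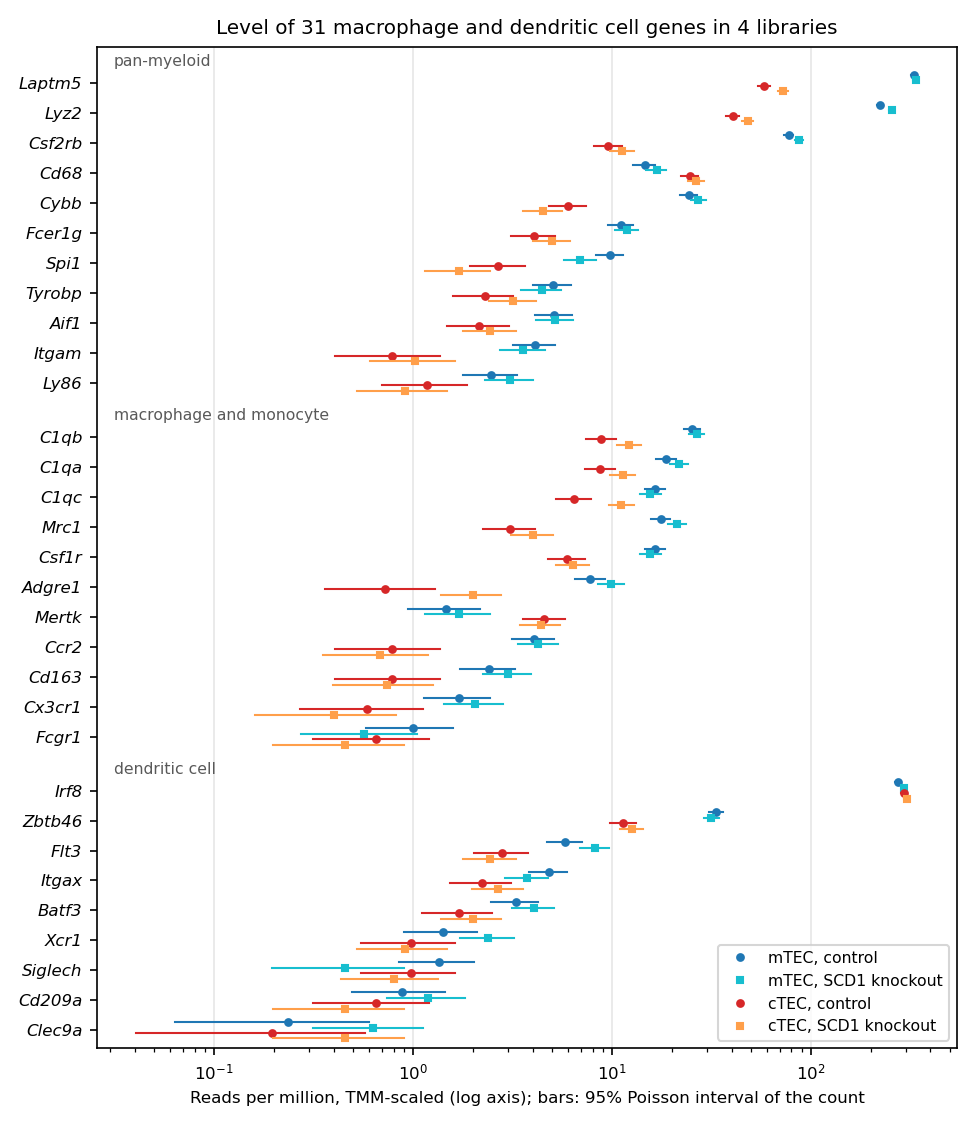
Level of each of the 31 members in the 4 libraries, as TMM-scaled CPM on a log axis, with 95% Poisson intervals of the count; blue and cyan are mTEC, red and orange cTEC, circles control and squares SCD1 knockout. Laptm5, Lyz2 and Irf8 stand highest, Irf8 at 273 to 304 in all 4 libraries, and Cd68 and Mertk are the members with both cTEC libraries above both mTEC libraries beyond their intervals.

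Between genes, levels can be compared only per length, here as transcript abundance per length (TPM) from the gene lengths in the table. On that scale Lyz2, the lysozyme gene of myeloid cells, stood at 485 TPM in control and 541 in knockout mTEC, and at 88.1 in control and 103 in knockout cTEC. Laptm5, a lysosomal membrane protein of blood cells generally, stood at 248, 248, 43.9 and 54.2 TPM in the same order. Csf1r, the receptor on which macrophages depend, was at 9.67, 8.90, 3.49 and 3.70 TPM. Lyz2 was thus 50.1 and 60.8 times the Csf1r level in mTEC and 25.2 and 28.0 times in cTEC, so the members did not keep to 1 ratio across the populations. Ptprc, the gene of the surface protein CD45 of all blood cells, can be set beside it. The Laptm5 level per length was 78.5 and 66.2 times that of Ptprc in mTEC and 10.5 and 9.83 times in cTEC.

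The first comparison asked which of these genes differ between mTEC and cTEC. In control mice 21 of the 25 members with at least 50 reads over the pair were higher in mTEC by the size rule (at least 2-fold, counting interval excluding equality), where 19.0% of the 15747 genes tested were. A single member, Mertk, was lower by the rule, against 8.53% of all genes. In knockout mice 19 of 26 were higher, against 19.8%, and again Mertk alone was lower, against 8.96%. The median log2 ratio of mTEC over cTEC over the measured members was 1.47 in control and 1.35 in knockout mice, beside −0.06 and −0.08 over all genes tested. The 2 genotypes share no library, and 17 members passed as higher in both, where 17.0% of the 15509 genes measured in both did. Mertk passed as lower in both, where 6.70% did. Whether a difference comes from more or fewer cells of a type or from more or less RNA per cell cannot be told apart in bulk RNA, here and in all comparisons that follow.

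**Figure D2:**
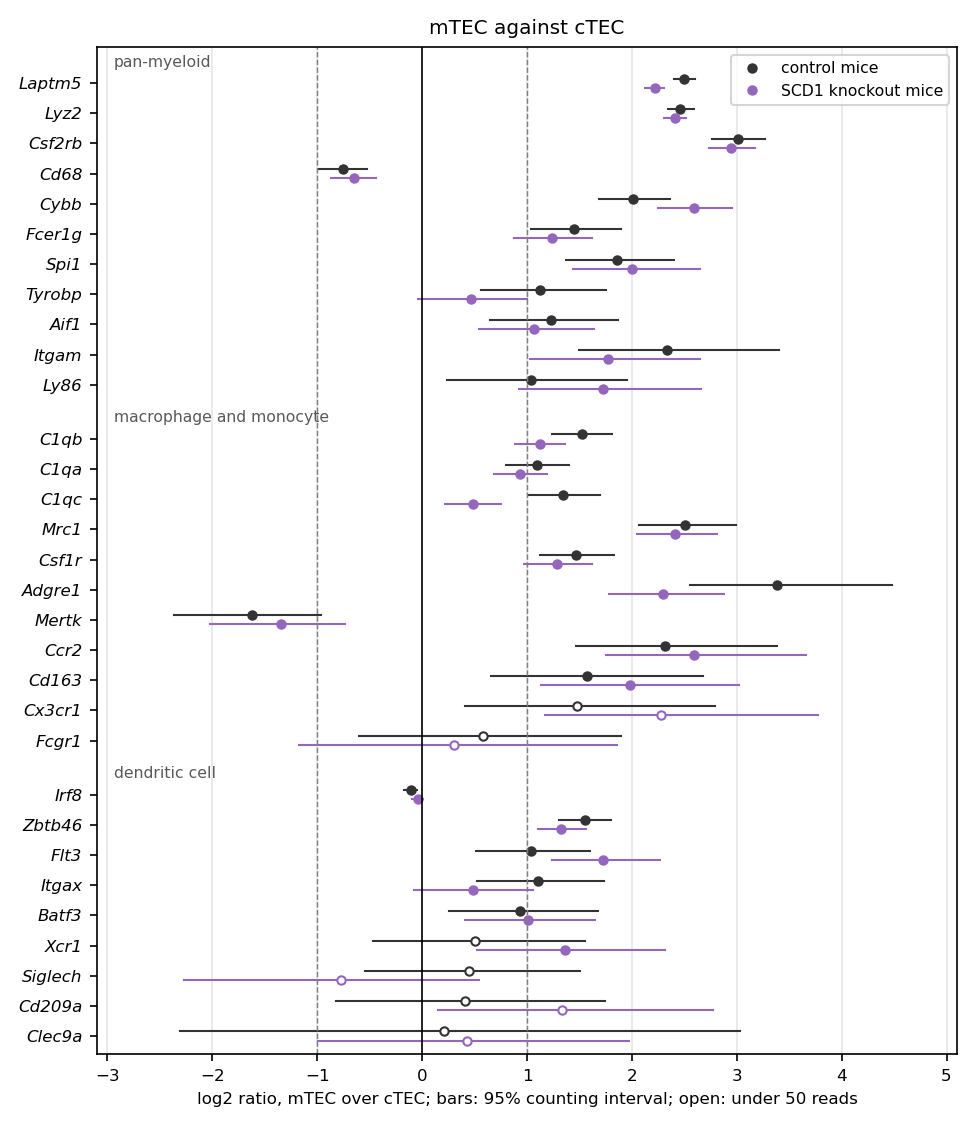
The log2 ratio of mTEC over cTEC for each member, in control mice (black) and SCD1 knockout mice (purple), with 95% counting intervals; dashed lines mark 2-fold, and open circles have under 50 reads over the pair. Most members lie to the right of 1, Irf8 lies close to 0 and Cd68 and Mertk lie to the left of 0 in both genotypes.

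Among the genes shared by myeloid cells, Csf2rb had the largest ratio in both genotypes. It encodes the beta chain shared by the receptors for the cytokines of the Csf2, Il3 and Il5 genes. The gene had 1322 and 1537 reads in control and knockout mTEC and 147 and 198 in control and knockout cTEC, 8.04-fold higher in mTEC in control mice (log2 3.01, 2.76 to 3.27) and 7.73-fold in knockout mice. Both mTEC libraries were far above both cTEC libraries. Of its 50-base windows 18.4% also occur in its neighbour Csf2rb2, which had 706, 846, 107 and 114 reads in the same order, and the 2 genes summed were 7.15-fold and 7.61-fold higher in mTEC.

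Lyz2 had 3808 and 4503 reads in mTEC and 619 and 844 in cTEC, 5.51-fold and 5.32-fold higher in mTEC in control and knockout mice. Its near copy Lyz1, which holds 15.4% of its windows and is known for its use by epithelial Paneth cells, had 1962 and 2111 reads in mTEC and 59 and 115 in cTEC. Lyz1 was 29.6-fold and 18.2-fold higher in mTEC, more than Lyz2 in each genotype. Laptm5 had 5617 and 5930 reads in mTEC and 889 and 1273 in cTEC, 5.66-fold and 4.65-fold higher.

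Cybb had 416 and 479 reads in mTEC and 92 and 79 in cTEC, 4.04-fold higher in mTEC in control mice (log2 2.01, 1.69 to 2.36) and 6.02-fold in knockout mice (2.59, 2.25 to 2.96). All 5 genes listed as partners of Cybb in the oxidase passed the size rule in the same direction in both genotypes. Ncf1, a cytosolic organiser subunit, had 2396 and 2749 reads in mTEC and 179 and 177 in cTEC (log2 ratio 3.58 in control and 3.95 in knockout mice). Ncf4, another cytosolic subunit, had log2 ratios of 3.22 and 3.75, and Cyba, the membrane partner, of 3.29 and 3.26. Per length Cyba stood at 62.6 and 58.3 times the Cybb level in mTEC and at 25.9 and 36.7 times in cTEC.

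Spi1 had 167 and 122 reads in mTEC and 41 and 30 in cTEC, 3.62-fold and 4.01-fold higher in mTEC. Fcer1g, the signalling adaptor of Fc receptors, had 190 and 209 reads in mTEC and 62 and 88 in cTEC. Its log2 ratio of mTEC over cTEC was 1.45 (1.04 to 1.90) in control and 1.24 (0.88 to 1.62) in knockout mice. Tyrobp, the adaptor that serves TREM2 and related receptors, had 86 and 78 reads in mTEC and 35 and 56 in cTEC. Its ratio passed the rule in control mice (1.13, 0.56 to 1.75) and not in knockout mice (0.47, with an interval that includes 0). Of the 4 measured receptors and kinases that work with these adaptors, 3 passed as higher in control mice and 4 in knockout mice. Syk, the kinase both adaptors recruit, had log2 ratios of 1.51 and 1.52, and Trem2 of 2.23 and 2.47.

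Itgam, the integrin alpha chain CD11b of a complement receptor, had 70 and 63 reads in mTEC and 12 and 18 in cTEC, log2 ratios of 2.34 (1.49 to 3.41) and 1.78 (1.03 to 2.65). The beta chain with which it pairs, Itgb2, lay the other way, with 146 and 140 reads in mTEC and 226 and 334 in cTEC (−0.79, −1.10 to −0.48, and −1.25, −1.55 to −0.97). Per length, in the knockout libraries, Itgb2 was 3.66 times the Itgam level in mTEC and 30.5 times in cTEC. A readthrough gene model, Gm49368, covers 72.4% of the Itgam windows at the same place and strand and had at most 3 reads in a library. How reads in the shared stretch were assigned is not known here, so the Itgam level may be too low. Itgb2 also serves lymphocytes, through the alpha chain Itgal, which had log2 ratios of 0.55 and 0.46. Aif1, a calcium-binding protein of macrophages, had 87 and 91 reads in mTEC and 33 and 43 in cTEC (1.23 and 1.07). Ly86, a partner of a Toll-like receptor homologue, had 42 and 54 against 18 and 16 (1.04 and 1.72).

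Cd68, a lysosomal glycoprotein much used to stain macrophages, had 249 and 295 reads in mTEC and 377 and 463 in cTEC. Both cTEC libraries were above both mTEC libraries, by 1.69-fold in control and 1.57-fold in knockout mice, under the 2-fold of the rule. Its length-scaled level of 56.1 and 59.4 TPM in cTEC was behind only Irf8 and Lyz2 among the members.

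Among macrophage genes the C1q chains were the most abundant. C1qa, C1qb and C1qc lie side by side on the minus strand of mm10 chromosome 4 (136895917 to 136898803, 136880129 to 136886187 and 136889804 to 136893065), and their proteins assemble into the first component of the classical complement pathway. C1qb had 433 and 469 reads in mTEC and 135 and 215 in cTEC, and C1qa 320 and 382 against 134 and 199. C1qc had 282 and 275 reads in mTEC and 99 and 196 in cTEC. In control mice all 3 passed as higher in mTEC, with log2 ratios of 1.52 for C1qb, 1.35 for C1qc and 1.10 for C1qa. In knockout mice C1qb passed (1.12, 0.89 to 1.36), while C1qa (0.94, 0.69 to 1.19) and C1qc (0.48, 0.22 to 0.76) were under 2-fold. Of 9 other complement genes, 8 were measured, and C1s1, a protease of the C1 complex, was the only one higher by the rule (1.48 in control and 1.49 in knockout mice).

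Csf1r had 282 and 275 reads in mTEC and 91 and 112 in cTEC. It was higher in mTEC by 1.47 (1.13 to 1.83) in control and 1.29 (0.97 to 1.62) in knockout mice on the log2 scale. Hmgxb3 overlaps it on the opposite strand and shares 17.7% of its windows, and had 632, 647, 474 and 471 reads. The strand setting was not given in the sources used here, so their reads may be mixed. Both ligands of this receptor lay the other way. Csf1 had 2221 and 2132 reads in mTEC and 3528 and 3677 in cTEC (−0.82 and −0.79), and Il34 had 99 and 138 in mTEC and 608 in each cTEC library (−2.77 and −2.14).

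Mrc1, the mannose receptor, had 300 and 375 reads in mTEC and 47 and 70 in cTEC, 5.67-fold and 5.31-fold higher in mTEC. Adgre1, the gene of a surface antigen long used to stain mouse macrophages, had 133 and 174 reads in mTEC and 11 and 35 in cTEC (log2 3.38, 2.55 to 4.48, and 2.29, 1.78 to 2.88). Ccr2, the chemokine receptor of inflammatory monocytes, had 69 and 75 reads in mTEC and 12 in each cTEC library (2.32 and 2.59). Cd163, a haemoglobin scavenger receptor, had 41 and 53 against 12 and 13 (1.57 and 1.98). Cx3cr1, the fractalkine receptor, had 29 and 36 reads in mTEC and 9 and 7 in cTEC, and Fcgr1, the high-affinity Fc receptor for IgG, 17 and 10 against 10 and 8. These 2 had under 50 reads over each population pair, and the log2 ratios of Cx3cr1 were 1.48 (0.41 to 2.79) and 2.28 (1.17 to 3.77). The ligand genes of CCR2 and CX3CR1 stood higher in cTEC, Ccl2 at −0.80 and −0.66, Ccl7 at −0.58 and −0.64 and Cx3cl1 at −1.04 and −0.98 on the log2 scale.

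Mertk was the member that passed as lower in mTEC, with 25 and 30 reads there and 70 and 77 in cTEC (−1.62, −2.36 to −0.97, in control and −1.35, −2.02 to −0.74, in knockout mice). Both cTEC libraries were above both mTEC libraries. Gas6, a bridging ligand through which MERTK binds dying cells, was far more abundant, with 11701 and 12782 reads in mTEC and 34484 and 40939 in cTEC (−1.72 and −1.68). Pros1, the other such ligand, stood at −0.70 and −0.93. Axl, a receptor of the same family, lay the other way at 0.67 and 0.87. Of the other scavenger and efferocytosis receptors, 3 of 6 measured passed as higher in mTEC in each genotype. Marco, a scavenger receptor of some macrophages, had 134 and 193 reads in mTEC and 1 and 5 in cTEC. Of the other Fc gamma receptors, 1 of 2 measured passed in control mice (Fcgr2b, 1.16) and 0 of 2 in knockout mice. Other macrophage genes were divided, with 3 higher and 3 lower of 10 in control mice and 3 higher and 1 lower of 10 in knockout mice. Their sum was higher in cTEC, at 776 and 808 CPM in mTEC and 1101 and 1117 in cTEC (−0.51 and −0.47).

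Of the dendritic cell genes, Irf8 was the most abundant and differed least between populations. It had 4660 and 5186 reads in mTEC and 4505 and 5332 in cTEC, 273, 295, 295 and 304 CPM. The log2 ratio of mTEC over cTEC was −0.11 (−0.17 to −0.05) in control and −0.04 (−0.10 to 0.01) in knockout mice, and its sign in knockout mice depends on the scaling. Per length Irf8 stood at 18.8 and 16.5 times the level of Batf3, its partner in dendritic cells that cross-present antigen, in mTEC and at 39.2 and 34.5 times in cTEC. Irf8 made up 57.9% of the member reads in control cTEC and 23.9% in control mTEC. The remaining 8 dendritic cell genes together were 2.44-fold higher in control mTEC and 2.34-fold in knockout mTEC.

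Zbtb46, a factor of conventional dendritic cells, had 569 and 557 reads in mTEC and 174 and 221 in cTEC (1.55, 1.30 to 1.81, and 1.33, 1.10 to 1.56). Flt3 had 99 and 144 reads in mTEC and 43 in each cTEC library (1.04 and 1.73), and its ligand gene Flt3l lay the other way by the rule (−1.06 and −1.14). Itgax, the integrin CD11c, had 82 and 66 against 34 and 47, and passed in control mice (1.10, 0.52 to 1.73) but not in knockout mice (0.48, −0.07 to 1.06). Batf3 had 56 and 71 against 26 and 35, and passed in knockout mice (1.01, 0.41 to 1.64) but not in control mice (0.94, 0.25 to 1.68). The intervals of the 2 genotypes overlap for both genes.

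Genes that mark single kinds of dendritic cell were rare. Xcr1, the receptor of cross-presenting cells, had 24 and 42 reads in mTEC and 15 and 16 in cTEC, and Clec9a, their receptor for dead cells, had 4 and 11 against 3 and 8. Siglech had 23 and 8 reads in mTEC and 15 and 14 in cTEC, and Cd209a, a lectin of dendritic cells of the second conventional kind, 15 and 21 against 10 and 8. At this depth, where 3 counts correspond to 0.171 to 0.196 CPM, the counting interval of the population ratio included 0 for these genes except in knockout mice for Xcr1 (1.36, 0.53 to 2.32) and, on 29 reads, for Cd209a (1.34, 0.16 to 2.77). Xcl1, the ligand of XCR1, had 51 and 56 reads in mTEC and 2 in each cTEC library (4.21 and 4.50). Of 14 other dendritic cell genes measured, 6 passed as higher in mTEC in both genotypes, among them Irf4 (2.83 and 2.96) and Cd207, the langerin gene (5.14 and 4.52). Another 6 of the 14 had counting intervals below 0 in each genotype, Tlr3 alone among them past the rule, in knockout mice (−1.21). The sum of the whole list of 17 was close to level between the populations (−0.07 and 0.02).

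Markers of other cells were read beside these differences. Summed neutrophil and monocyte markers gave 211 and 214 CPM in mTEC and 22.3 and 14.9 in cTEC, mast cell and eosinophil markers 66.6 and 72.7 against 5.36 and 2.40, and B cell markers 132 and 138 against 23.9 and 21.9. Erythroid markers gave 16.1 and 16.6 CPM in mTEC and 1.70 and 1.94 in cTEC, with Hba-a2 and Hbb-bt at 0 in both cTEC libraries. Ms4a2 and Siglecf were at 0 in knockout cTEC and Retnlg in control cTEC. Thymocyte markers lay the other way, at 247 and 291 CPM in mTEC and 325 and 421 in cTEC. The sum of the 7 fibroblast and pericyte markers did so too, at 180 and 185 against 400 and 393, but the list was split. By the rule 2 of the 7 were higher and 2 lower in mTEC in control mice, and 3 higher and 2 lower in knockout mice. Dcn had 1210 and 1247 reads in mTEC and 4535 and 5277 in cTEC, and Pdgfrb 393 and 453 against 30 and 36. Endothelial markers gave 43.8 and 51.6 CPM in mTEC and 26.2 and 37.0 in cTEC, and were split as well. Of 5 measured in control mice 3 were above and 2 below 0, and of 7 in knockout mice 4 and 3. Flt1 had 304 and 262 reads in mTEC and 59 and 60 in cTEC, and Cldn5 10 and 53 against 49 and 65.

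The 9 pan-leukocyte genes summed to 716 and 749 CPM in mTEC and 444 and 487 in cTEC, but split within the list. Cd52, Lcp1 and Ikzf1 passed as higher in mTEC, while Ptprc had 346 and 433 reads there and 408 and 626 in cTEC (−0.39 and −0.53). Markers of epithelial subtypes were likewise higher in mTEC. Microfold-like markers, Spib and Ccl9 among them, gave 704 and 718 CPM in mTEC and 140 and 142 in cTEC, and tuft-like markers 157 and 182 against 76.7 and 74.4. The part of any of these cells in the member differences was not tested.

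**Figure D3:**
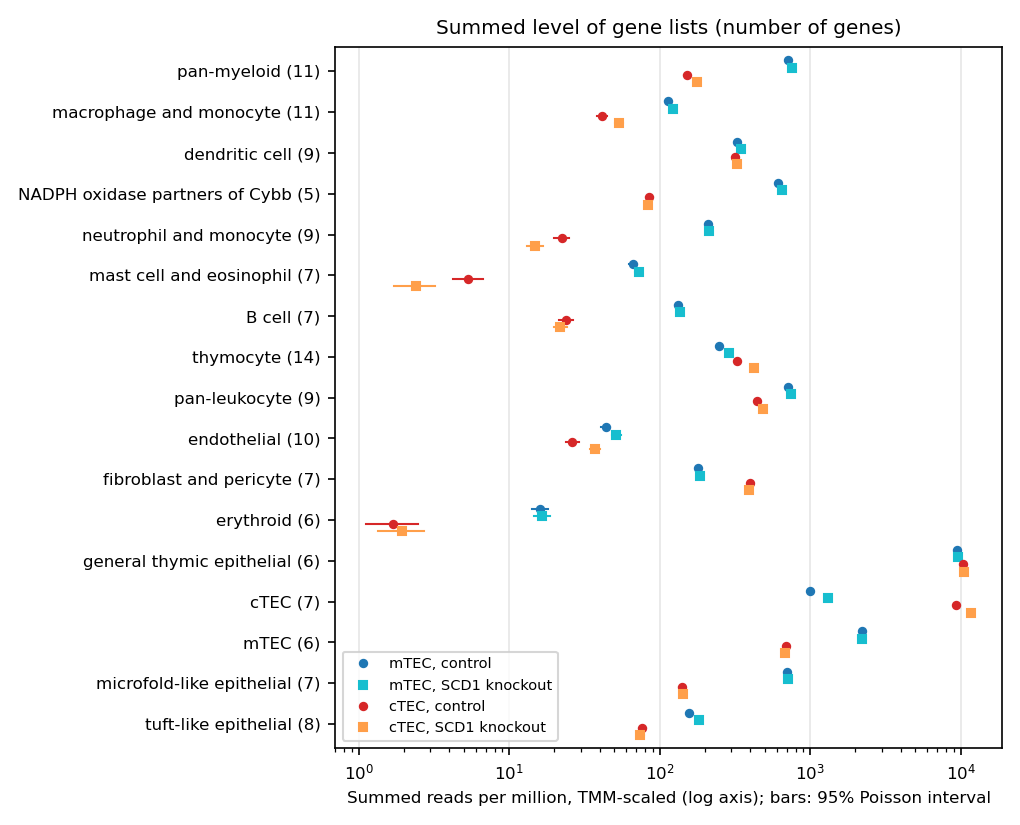
Summed level of the member subsets, the oxidase partners and the lists of other cells in the 4 libraries as TMM-scaled CPM on a log axis, with 95% Poisson intervals and the number of genes in brackets; colours and symbols mark the library. Pan-myeloid, macrophage and monocyte, oxidase, granulocyte, B cell and microfold-like sums are higher in mTEC. The thymocyte, fibroblast and cTEC sums are higher in cTEC, though the fibroblast genes are split within their list. The dendritic cell sum, most of it Irf8, is 316 to 348 in all 4 libraries.

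The second comparison asked whether the same genes differ between SCD1 knockout and control mice. No member passed the size rule in either population, where 0.935% of 16466 genes did in mTEC and 1.20% of 14445 in cTEC. Among members with at least 50 reads over the pair the differences were smaller than 2-fold. Of these, 20 of 27 in mTEC and 16 of 20 in cTEC were above 0, towards the knockout library. Among all genes tested 51.9% and 52.3% were above 0. Under that minimum, Siglech, Adgre1 and Clec9a differed by more than 2-fold in at least 1 population, with the counting interval of Clec9a including 0 in both. The median log2 ratio of knockout over control was 0.16 over 27 measured members in mTEC and 0.23 over 20 in cTEC, beside 0.01 over all genes tested in each. In mTEC the counting interval lay above 0 for 7 of 27 members and below 0 for 1, where 11.6% and 10.2% of all genes did so. In cTEC it lay above 0 for 5 of 20 and below 0 for none, where 16.3% and 14.5% did.

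**Figure D4:**
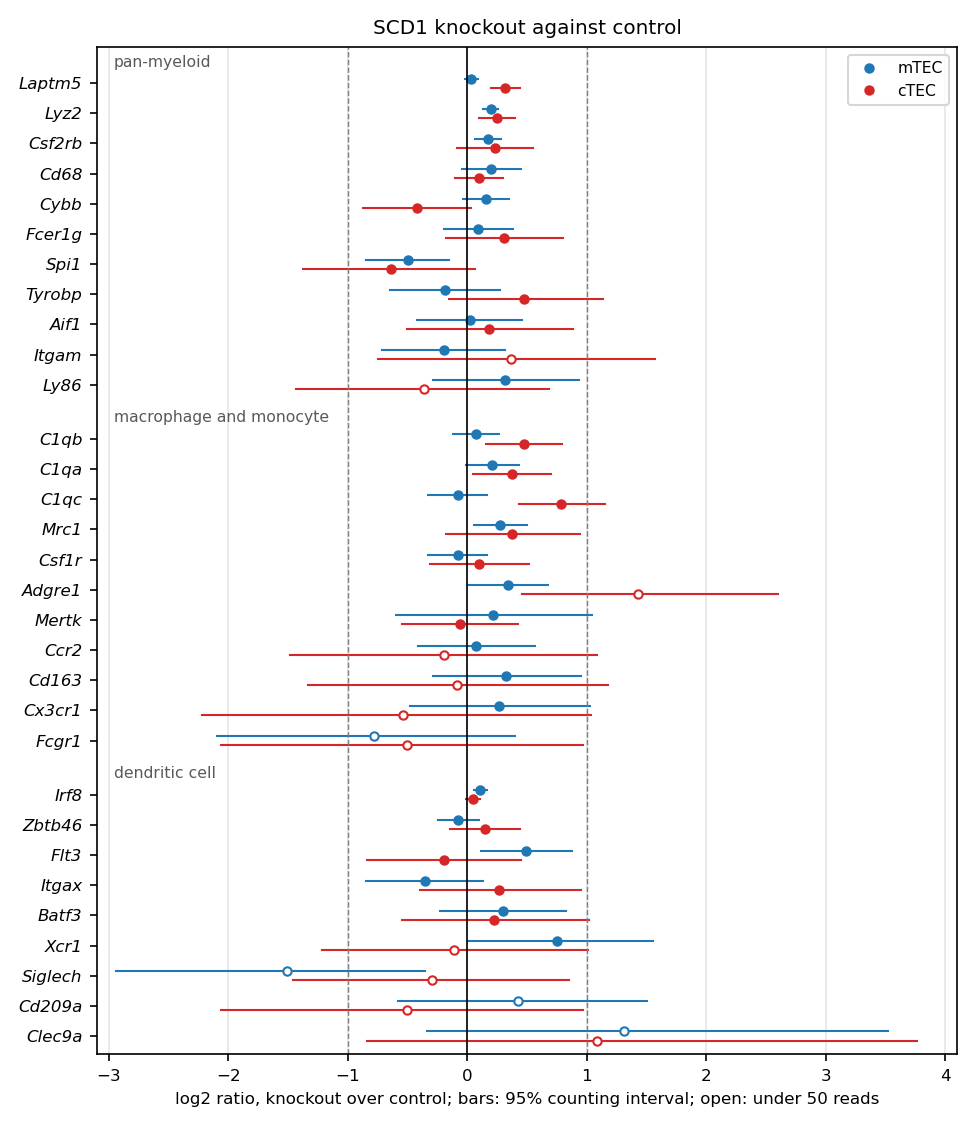
The log2 ratio of SCD1 knockout over control for each member in mTEC (blue) and cTEC (red), with 95% counting intervals; dashed lines mark 2-fold, and open circles have under 50 reads over the pair. No filled circle lies beyond a dashed line, C1qc at 0.78 in cTEC is the highest filled point, and Spi1 lies below 0 in both.

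In mTEC the 7 members with intervals above 0 were Lyz2, Csf2rb, Mrc1, Adgre1, Irf8, Flt3 and Xcr1. Lyz2 stood at 223 CPM in the control and 256 in the knockout library (log2 0.20, 0.14 to 0.26), and Csf2rb at 77.6 and 87.5 (0.17, 0.07 to 0.28). Mrc1 stood at 17.6 and 21.3 CPM (0.28, 0.06 to 0.50) and Adgre1 at 7.80 and 9.90 (0.34, 0.01 to 0.68). Of the dendritic cell genes, Irf8 stood at 0.11 (0.05 to 0.17) and Flt3 at 0.49 (0.12 to 0.88). Xcr1 had the largest of these ratios, 0.75 (0.01 to 1.55) on 24 and 42 reads. Spi1 was the member with an interval below 0, at 9.80 CPM in the control and 6.94 in the knockout library (−0.50, −0.85 to −0.15).

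Siglech had 23 control and 8 knockout reads in mTEC, a log2 ratio of −1.51 (−2.94 to −0.36). With 31 reads it was under the minimum of 50 and was not counted. The C1q genes as a group were nearly level in this pair, with 1035 and 1126 reads (0.08, −0.05 to 0.20). Csf1r stood at −0.08 (−0.33 to 0.16), Laptm5 at 0.03 (−0.02 to 0.09), Itgax at −0.36 (−0.85 to 0.13) and Tyrobp at −0.18 (−0.65 to 0.27). These values do not show that the genes were equal, and the intervals give what the depth allows.

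In cTEC the 5 members with intervals above 0 were the 3 C1q genes, Laptm5 and Lyz2. C1qc stood at 6.48 CPM in the control and 11.2 in the knockout library (log2 0.78, 0.43 to 1.15), C1qb at 8.83 and 12.3 (0.47, 0.16 to 0.79) and C1qa at 8.77 and 11.4 (0.37, 0.05 to 0.70). Together the 3 genes had 368 and 610 reads, 1.44-fold higher in the knockout library (0.53, 0.34 to 0.72). Per length C1qc was at 0.398 times the C1qa level in control cTEC and 0.530 times in knockout cTEC, and at 0.475 and 0.388 times in the mTEC libraries. Laptm5 stood at 58.2 and 72.6 CPM (0.32, 0.20 to 0.45) and Lyz2 at 40.5 and 48.1 (0.25, 0.10 to 0.40).

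In cTEC the knockout library had 35 reads of Adgre1 and the control library 11, a log2 difference of 1.43 (0.46 to 2.60) on fewer reads than the minimum. Cybb stood at 6.02 and 4.51 CPM (−0.42, −0.87 to 0.03) and Spi1 at 2.68 and 1.71 (−0.64, −1.38 to 0.07), both lower in the knockout library with intervals that include 0. The oxidase partner Ncf4 lay the same way in this pair, at −0.48 (−0.96 to −0.0044), and was the only partner whose interval excluded 0. Of the 5 partners 3 were below and 2 above 0, and their sum was close to level (−0.02, −0.13 to 0.09). Other members spread on either side of 0, from Csf1r at 0.10 (−0.31 to 0.52) and Mrc1 at 0.37 (−0.18 to 0.94) to Flt3 at −0.20 (−0.84 to 0.45) and Mertk at −0.06 (−0.55 to 0.43).

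Between the populations, which share no library in this comparison, 11 of the 20 members measured in both were above 0 in both, where 29.1% of the 13953 genes measured in both were. Of these 20 members Spi1 alone was below 0 in both, where 25.5% of the genes measured in both were. The labels do not say whether the mTEC and cTEC libraries of a genotype came from the same mice, so the 2 ratios may not be independent. The difference of the log2 ratios, mTEC minus cTEC, had a counting interval that excluded 0 for Laptm5 (−0.29, −0.42 to −0.15), C1qb (−0.40, −0.76 to −0.04), C1qc (−0.86, −1.29 to −0.44), Adgre1 (−1.09, −2.10 to −0.07) and Cybb (0.58, 0.10 to 1.05). These are differences among 4 libraries and were not tested, and the share of all genes with such an interval was not computed.

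Markers of other cells also differed between the genotypes. Summed thymocyte markers were higher in the knockout libraries, at 247 and 291 CPM in mTEC (log2 0.23) and 325 and 421 in cTEC (0.37), and so were endothelial markers (0.23 and 0.50). Summed pan-leukocyte genes stood at 0.07 and 0.13 and B cell markers at 0.06 and −0.12. Gene by gene, 7 of the 9 pan-leukocyte genes were above 0 in mTEC and 8 of 9 in cTEC, where 51.9% and 52.3% of all genes tested were. Their medians were 0.16 and 0.26. The granulocyte sums went the other way in cTEC, with neutrophil and monocyte markers at −0.58 (−0.82 to −0.35) and mast cell and eosinophil markers at −1.15 (−1.74 to −0.61). In mTEC they stood at 0.02 and 0.13. The cTEC sums rest on few reads, 341 control and 261 knockout for the first list and 82 and 42 for the second. Of their genes 3 of 9 and 1 of 7 were measured in cTEC, all below 0. Among them S100a9 was nearly level, at 25 and 27 reads. The cTEC marker list was itself higher in both knockout libraries (0.40 and 0.35). The part of these shifts in the member ratios was not tested. Single endothelial markers passed the size rule as higher in the knockout library, Cldn5 in mTEC and Cdh5 in cTEC, and so did the tuft-like gene Il25 in mTEC. Of the pathway lists the rule was passed by Stab2 alone, a scavenger receptor gene of sinusoidal endothelium, with 13 and 38 reads in mTEC (1.47, 0.56 to 2.54).

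Among the remaining lists, other complement genes were above 0 for 3 of 8 measured in mTEC and 2 of 8 in cTEC, where 51.9% and 52.3% of all genes tested were, and none passed the rule. C3, the central complement gene, had 26803 and 24671 reads in mTEC (−0.16, −0.19 to −0.14) and 18192 and 17510 in cTEC (−0.25, −0.28 to −0.22), opposite to the C1q genes in cTEC. Ligand genes of the member receptors were above 0 for 7 of 11 in mTEC and 2 of 8 in cTEC, beside the same shares of all genes. Il34 differed in direction, at 0.43 (0.05 to 0.82) in mTEC and −0.20 (−0.36 to −0.03) in cTEC. Other macrophage genes had medians of 0.15 over 11 in mTEC and −0.07 over 7 in cTEC, and other dendritic cell genes of 0.05 over 14 and 0.03 over 11.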

How the data were processed

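RNA of 4 thymic epithelial libraries was sequenced, 1 per group, from kits that the labels name as NEBNext Ultra. The table deposited by the authors holds unnormalised counts of reads for each gene. CASAVA, HISAT2 2.0.5, featureCounts 1.5.0-p3 and build mm10 are named in the submitters' processing notes. The annotation release, the strand setting and the treatment of multimapping reads were not given in the sources used here. Per the file headers the table also holds a gene length in bases, of another (other) unit, used here for TPM.

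Counts were scaled with TMM in edgeR 4.0.16 under R 4.3.3, on all genes. Ratios, intervals and plots were made in Python 3.11.15 with pandas 2.3.3, numpy 2.4.6, scipy 1.17.1 and matplotlib 3.10.9. Log2 ratios carry a prior count of 0.5 reads. The 95% interval of a ratio is the Clopper-Pearson one for the split of reads between the libraries, that of a level an exact Poisson interval, and that of a difference of 2 ratios a normal interval from the 4 counts. Since PCR copies are counted as reads, intervals and the floor of 3 counts cover counting error only. The size rule asks for at least 50 reads over the pair, at least 2-fold and an interval that excludes equality. It was run on the whole table and checked on simulated counts.

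Members were matched by symbol. Of the Ccl21a gene models, the one on an unplaced scaffold was kept out of the lists. Copies were measured as 50-base windows of the longest GENCODE M21 transcript found in another gene on either strand. Promoters are RefSeq windows. Members, lists (myeloid subsets, partners of the oxidase, Fc receptors, adaptors, integrins, complement, ligands, scavenger receptors, other macrophage and dendritic cell genes, and markers of other cells) and rules were chosen with earlier results of these data known. By the rule for named genes, all members are accounted for, and of each other list genes past the size rule and up to 3 with the largest ratios may be named. Ptprc, Itgal, Csf1, Ccl2, Ccl7, Pros1, Axl, Il34 in the genotype comparison, C3, Syk and the copies Lyz1 and Csf2rb2 were also named for their role beside a member, after their values were seen. Alternatives were DESeq2 1.42.0 size factors, total reads, other minimums, a prior of 5 reads, 1.5-fold and subsets of members. Values of 3 genes of these lists are not reported here.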

Additional observations from a re-analysis of the deposited data

Results flagged for a closer look

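For 2 members the genotype ratio lay in opposite directions in mTEC and cTEC and the counting interval of the difference excluded 0. With 1 library per group the difference was not tested, and the share of all genes that meet the same criterion was not computed. C1qc was at −0.08 in mTEC and 0.78 in cTEC on the log2 scale of knockout over control, a difference, mTEC minus cTEC, of −0.86 (−1.29 to −0.44). Cybb was at 0.16 in mTEC and −0.42 in cTEC, a difference of 0.58 (0.10 to 1.05). The mTEC ratio of C1qc and both ratios of Cybb have intervals that include 0.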

How the results depend on the processing

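No paired analysis was possible because each group has 1 library, and for the same reason no library could be left out. Of the summary values, 128 kept their size under the alternatives and 24 moved. Between knockout and control, a minimum of 10 reads or none let 1 member pass as lower in mTEC (Siglech) and 1 as higher in cTEC (Adgre1), and a threshold of 1.5-fold 1 as higher in each population. The log2 ratio of summed member reads, 0.10 in mTEC and 0.13 in cTEC, was 0.15 and 0.23 without Laptm5, Irf8, Flt3 and Spi1. It was 0.071 in mTEC without Csf2rb, Lyz2 and Cd209a. Without the 4 most abundant members, an alternative chosen after seeing the data, it was 0.076 in mTEC and 0.20 in cTEC, and the mTEC over cTEC ratio in knockout mice was 1.07. Between mTEC and cTEC the summed ratios of 1.17 in control and 1.14 in knockout mice were 1.26 and 1.24 with total reads only, 1.81 and 1.72 without Laptm5, Irf8, Flt3 and Spi1, and 0.88 and 0.83 without Csf2rb, Lyz2 and Cd209a. With a minimum of 200 reads 12 members passed as higher in control and 10 in knockout mice, and 0 as lower in either. Fewer members reach that minimum, and Mertk, with 95 reads over the control and 107 over the knockout pair, is taken out by it. The share of all genes passing at that minimum is not given here. With a threshold of 1.5-fold 2 passed as lower in each. With total reads only the Irf8 ratio in knockout mice changed sign, from −0.04 to 0.050, Batf3 in control mice passed at 1.03 and C1qa in knockout mice at 1.03. With a prior count of 5 reads Ly86 (0.87) and Flt3 (0.96) in control mice and Aif1 (0.997) and Batf3 (0.92) in knockout mice no longer passed. These 4 calls rest on few reads. Depth limits Cd209a, Clec9a, Fcgr1, Siglech, Xcr1 and Cx3cr1, which had under 50 reads over the control population pair.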

Other observations

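Granulocyte genes, which belong to none of the 31 members, were also read. The median log2 ratio of mTEC over cTEC over the 6 measured neutrophil and monocyte markers was 4.29 in control and 5.10 in knockout mice. All 6 passed the size rule in each, where 19.0% and 19.8% of all genes tested passed as higher. Ly6g, S100a8, S100a9 and Mpo had under 50 reads in each cTEC library, so their mTEC reads carried them past the minimum. The count of 6 is thus partly set by that minimum. S100a8 and S100a9, calcium-binding proteins abundant in neutrophils and also made by keratinised epithelium, had 1173 and 1147 and 592 and 696 reads in control and knockout mTEC, and 24 to 27 in the cTEC libraries. Ly6g, a surface marker of neutrophils, had 281 and 302 reads in mTEC and 4 and 2 in cTEC. Mpo, a granule enzyme of neutrophil precursors, had 563 and 568 against 27 and 10. Other neutrophil genes were near 0 in the same mTEC libraries, with 13 and 29 reads for the receptor gene Csf3r, 6 and 2 for the granule protease gene Elane and 7 and 12 for Retnlg, which were picked out after their values were seen. The eosinophil granule genes Prg2 and Epx had 626 and 697 and 302 and 364 reads in mTEC, against 34 and 24 and 9 and 7 in cTEC, while Siglecf, a receptor gene of eosinophils, had 26 in each mTEC library.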
